A study of Mus musculus with 6 samples.

Results

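Macrophages and the complement protein C1q that they make were examined in the ribs of mouse embryos through 34 genes. The genes were chosen by name as markers and products of the macrophage lineage and matched by symbol to the count table, where all 34 were found among 55487 gene IDs. All 34 also had the 10 counts over the 6 libraries needed to enter the test, which was run on 26596 genes.

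RNA-Seq was performed at 16.5 dpc on ribs of 3 control embryos (E420, E434 and E435, labelled wild type). It was also performed on ribs of 3 mutant embryos (E423, E433 and E440, labelled Col2-cre;Foxc1-/-;Foxc2-/-). The study chose the rib cage because, by its account, nonskeletal tissue could be removed efficiently. Genes of other tissues were still read, as given below. In the mutants, floxed alleles of the forkhead factors Foxc1 and Foxc2 were deleted by a Cre recombinase driven by the type II collagen promoter. In the hind limb at an earlier stage, the study found this Cre active in chondrocytes, the perichondrium and the primary ossification center. Whether any macrophage carried the deletion was not measured. Controls lacked the Cre transgene, and the background was mixed. By the study's methods the embryos compared were littermates, but the labels do not say which embryos shared a litter, and p-values therefore measure the spread between these 6 embryos.

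Macrophages engulf dying cells, debris and microbes, and in the embryo they settle in nearly every organ. In forming bone they live beside osteoclasts, the bone-resorbing cells that arise from the same myeloid lineage through the factors PU.1, M-CSF and RANKL. C1q starts the classical complement pathway: it is built from 3 different chains, the products of C1qa, C1qb and C1qc, and unlike most complement proteins it is made mainly by macrophages and microglia rather than by hepatocytes.

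Much of this lineage's gene expression depends on PU.1, the product of Spi1, which binds purine-rich DNA around a GGAA core. RefSeq promoter windows (GRCm38.p6, 250 bases before to 50 bases after each start) were found for 24 of the 34 genes, and the PU.1 letters GAGGAA were searched in them on both strands. Bases upstream of 4 genes are shown because these genes carry the results below: the C1q chain genes C1qb and C1qc, the lysosomal marker Cd68, and Gpnmb, the gene with the largest difference between the groups. Capitals mark GAGGAA or its reverse complement TTCCTC, and all sequences are written 5′ to 3′ on the gene's own strand.

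C1qb: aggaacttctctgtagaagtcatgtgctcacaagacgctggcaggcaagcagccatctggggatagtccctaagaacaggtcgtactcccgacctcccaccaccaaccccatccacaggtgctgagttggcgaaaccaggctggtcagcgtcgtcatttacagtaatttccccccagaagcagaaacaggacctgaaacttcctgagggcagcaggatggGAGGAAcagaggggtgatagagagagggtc
C1qc: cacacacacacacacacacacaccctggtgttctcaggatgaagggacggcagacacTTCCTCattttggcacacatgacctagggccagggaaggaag
Cd68: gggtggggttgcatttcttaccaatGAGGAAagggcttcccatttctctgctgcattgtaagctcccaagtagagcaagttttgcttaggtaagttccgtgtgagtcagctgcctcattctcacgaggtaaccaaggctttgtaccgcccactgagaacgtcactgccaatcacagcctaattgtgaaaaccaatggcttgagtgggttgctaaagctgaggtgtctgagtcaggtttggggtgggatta
Gpnmb: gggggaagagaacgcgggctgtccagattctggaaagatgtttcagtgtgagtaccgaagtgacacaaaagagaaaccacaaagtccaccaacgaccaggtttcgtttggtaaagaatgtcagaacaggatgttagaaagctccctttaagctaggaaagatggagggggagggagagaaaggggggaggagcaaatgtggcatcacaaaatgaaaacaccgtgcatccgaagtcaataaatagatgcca

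The C1qb sequence is chr4:136886201-136886450 on the minus strand, and its match begins 30 bases before the start. The C1qc sequence is chr4:136893066-136893164 on the minus strand, cut to the 99 bases outside annotated exons, and its match begins 193 bases before the RefSeq start on the opposite strand. Cd68 is shown over chr11:69666171-69666420 on the minus strand with its match 225 bases before the start. The Gpnmb bases, chr6:49036268-49036517 on the plus strand, hold no match.

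GAGGAA was present in 17 of the 24 windows (70.8%) and in 28.3% of all 32851 promoter windows of the same length. The longer form GAGGAAGT, every copy of which is also a copy of GAGGAA, was present in 4 windows (Cd53, C1qc, Ctss and Pf4; 16.7%) and in 3.2% of all windows. A composite PU.1 and IRF8 motif was found in 4 windows (Cd68, Folr2, Timd4 and Cybb) and in 2.72% of all windows. TGCTGA, part of a site bound by Maf, was in 8 windows (33.3%) and in 19.5% of all, and TATAAA was in 4 windows (16.7%) and in 13.6% of all. These are counts of letters and say nothing of binding in the rib cage.

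Library totals ran from 37853988 to 47794799 counts, and 3 counts equalled 0.0618 to 0.0764 CPM (counts scaled to library size by TMM, the unit used for comparisons between embryos). Foxc1 was at 23.1, 36.9 and 24.2 CPM in controls against 3.56, 9.61 and 3.51 CPM in mutants. Foxc2 was at 1.99, 4.83 and 3.22 CPM against 0.649, 1.14 and 0.737 CPM. Both targeted genes were thus lower in every mutant, as labelled. Within each group a pair of libraries was close and the third stood apart: log2 ratios over genes had an SD of 0.153 between E420 and E435 and 0.132 between E423 and E440, and 0.471 to 1.37 for the other pairs. Within the close pairs, the RSEM expected counts, in which each fragment counts once, gave a mean chi-square of 5.42 and 2.27 over genes, where sampling of independent fragments alone would give about 1. Amplified copies of a fragment were not told apart in this test. The 6 libraries were treated as separate samples because their labels name separate embryos. Mutant E433 was also the only library with high Xist, at 1127 CPM against at most 3.11 CPM elsewhere, and had hepatocyte genes at a summed 779 CPM against 58.5 to 89.2 CPM elsewhere. The labels do not give the sex of the embryos, and the part of sex in the values of E433 was not tested. Every estimate without E433 also leaves out the only library with high Xist. Early chondrocyte genes set both outlying libraries apart, with a summed 20800 CPM in E434 and 7476 CPM in E433 against 520 to 1510 CPM in the other 4. Adipocyte genes summed to 634 and 651 CPM in E423 and E440 and to 138 to 212 CPM in the others. Skeletal muscle genes summed to 12190 to 25343 CPM over the 6 libraries, and keratinocyte genes to 18.2 to 27525 CPM. The libraries were thus not of skeletal tissue alone. The log2 fold change without E433 is given below for genes where it moved by over 1.5 times, turned sign or reached an adjusted p under 0.1 in edgeR. Sets of 3 values are always in the order E420, E434, E435 for controls and E423, E433, E440 for mutants.

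Macrophage genes were well represented in this tissue. On the RSEM TPM scale, which corrects for gene length and so allows genes to be ranked, the mean over the 6 embryos ran from 0.255 to 76.7 TPM, and 32 of the 34 genes reached 1 TPM. The highest was Pf4, the chemokine platelet factor 4 (76.7 TPM), which is made by megakaryocytes and by embryonic macrophages. Tyrobp, the signalling adaptor DAP12 (53.6 TPM), and Lyz2, lysozyme (52.8 TPM), came next. They were followed by C1qb (46.0 TPM), C1qa (39.3 TPM), C1qc (35.2 TPM), Fcer1g (31.5 TPM) and Stab1 (29.9 TPM). The spreads of Tyrobp and Lyz2 overlapped, as did those of neighbouring C1q chains. The lowest were Timd4 (0.315 TPM), a phosphatidylserine receptor of resident macrophages, and Marco (0.255 TPM), a scavenger receptor of particular macrophage subsets. Itgam (1.72 TPM), Cd163 (1.54 TPM) and Cd14 (1.27 TPM) were low but present in every embryo.

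**Figure D1:**
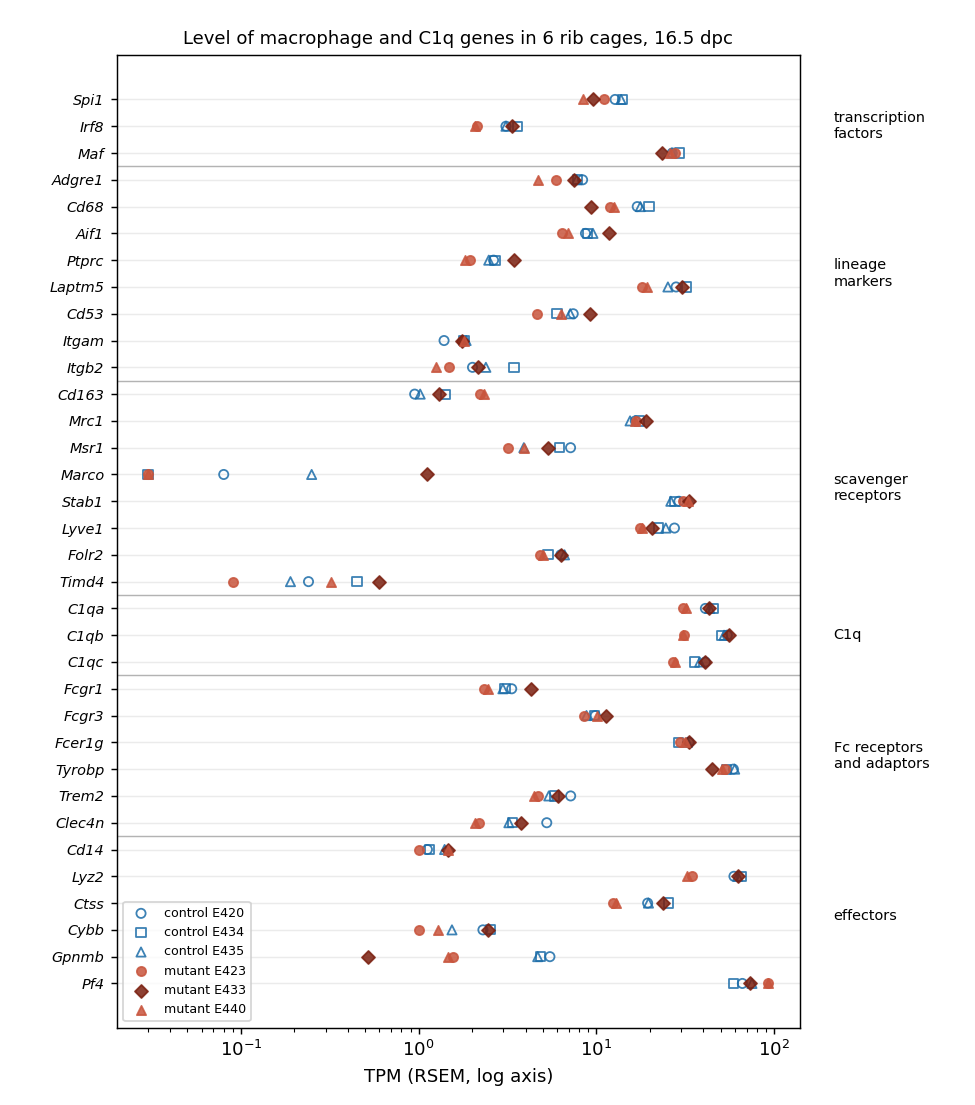
TPM of each of the 34 genes in each of the 6 embryos on a log axis, ordered by role, with controls as open blue and mutants as filled red symbols. Levels span from 0.255 TPM for Marco to 76.7 TPM for Pf4 as means, and for most genes the symbols of the groups lie close together or overlap.

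In the comparison of mutants with controls, none of the 34 genes passed both limits set for edgeR's quasi-likelihood test, which were 0.1 for the adjusted p-value and 1 or -1 for the log2 fold change. Over all genes tested, 8 were lower (0.0301%) and 9 were higher (0.0338%) past these limits. Adjusted p-values of the 34 genes ran from 0.201 to 0.994. Log2 fold changes were below 0 for 25 genes and above 0 for 9, with a median of -0.22 against 0.01 for all genes. For 27 of the 34 the estimate was smaller than 0.5 either way. The 95% interval lay between -1 and 1 for 24 genes, so for these a 2-fold difference in either direction was outside the interval, and it reached past 1 or -1 for the other 10.

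An unadjusted p under 0.05 was found for 8 genes that were lower (Spi1, Cd68, Laptm5, Itgb2, Msr1, Lyve1, Lyz2 and Gpnmb), with 4.7% of all genes on that side. It was found for 2 that were higher (Cd163 and Pf4), with 5.9% of all genes on that side. Every mutant lay below every control for 8 genes (Spi1, Cd68, Laptm5, Itgb2, Msr1, Lyve1, Trem2 and Gpnmb), where 8.21% of all genes did so. Every mutant lay above every control for Mrc1 and Stab1, a share of the 34 close to the 6.81% of all genes. On the TPM scale 6 genes were lower without overlap, against 5.72% of all genes. Of these, 4 (Spi1, Cd68, Lyve1 and Gpnmb) were also among the 8 that were lower in CPM, and Adgre1 and Tyrobp were not. Laptm5, Itgb2, Msr1 and Trem2 overlapped in TPM. Of the higher genes Stab1 alone stayed apart in TPM, against 6.08% of all genes. With DESeq2, 1 gene, Gpnmb, was lower past both limits (0.557% of all genes), and 4 were lower at an adjusted p under 0.1 at any fold (Gpnmb, Spi1, Cd68 and Lyve1; 1.73% of all genes).

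**Figure D2:**
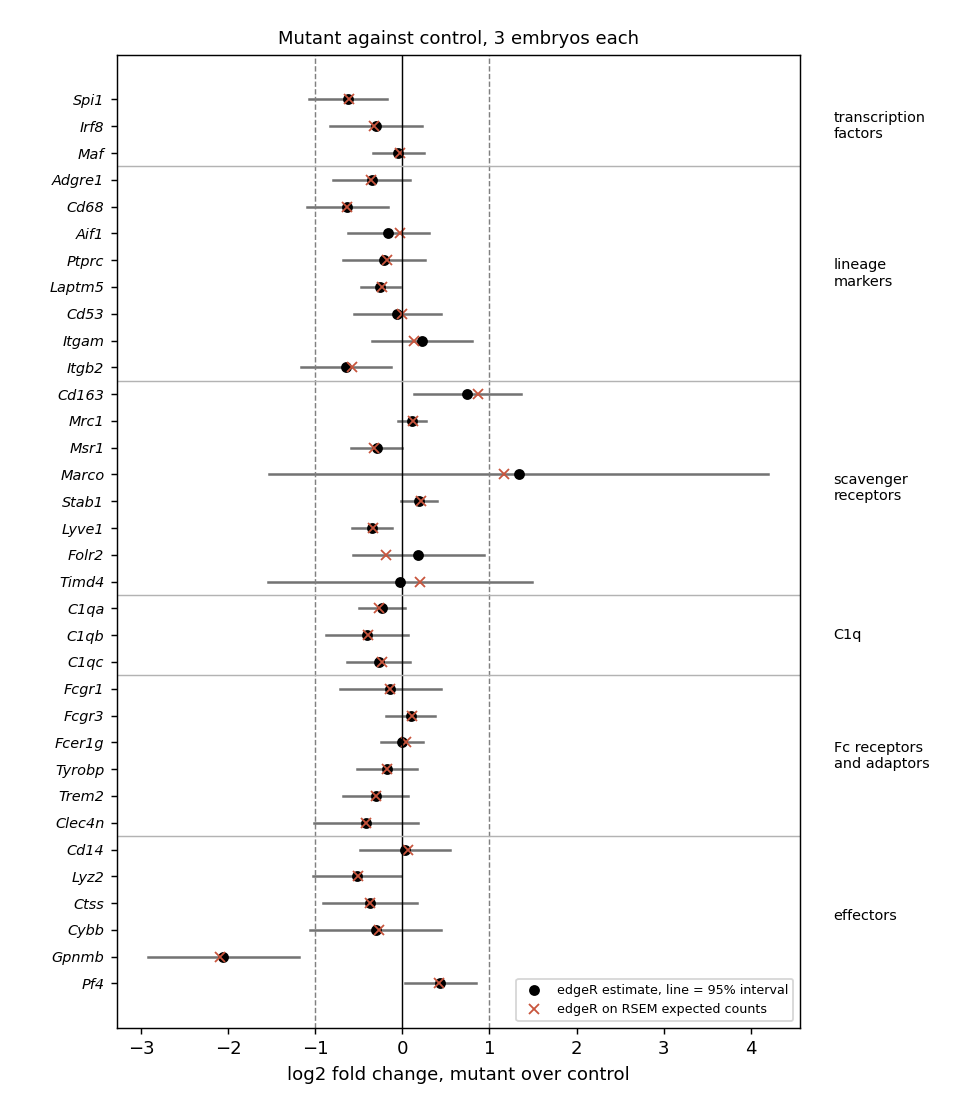
Log2 fold change of mutants over controls for each of the 34 genes from edgeR on the featureCounts counts (black, line as 95% interval) and from the RSEM expected counts (red cross). Gpnmb at -2.06 stands apart from the other 33 genes, of which the lowest is Itgb2 at -0.64, and Marco and Timd4 have the widest intervals.

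Gpnmb differed most. It encodes a transmembrane glycoprotein, also called osteoactivin, that macrophages, osteoclasts and osteoblasts make. Its level was 12.7, 11.5 and 12.4 CPM in controls and 3.61, 1.42 and 3.75 CPM in mutants. The groups were far apart, with the highest mutant well under the lowest control and E433 the lowest of all. The log2 fold change was -2.06 (95% interval -2.92 to -1.19), or 0.240 of the control level, and -1.72 without E433 (adjusted p = 0.00304 in edgeR). Its adjusted p was 0.201 by the quasi-likelihood test of edgeR, above the limit, and 2.52e-07 by the Wald test of DESeq2. The RSEM expected counts gave -2.10.

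Among the transcription factors, Spi1 (PU.1) was at 14.2, 16.9 and 16.8 CPM in controls and 12.1, 7.77 and 11.2 CPM in mutants. All mutants were below all controls, and E433 was the lowest in CPM, whereas in TPM the lowest was E440 (8.38 TPM, against 9.62 TPM in E433). The log2 fold change of Spi1 was -0.62 (interval -1.07 to -0.17), with an adjusted p of 0.390 in edgeR and 0.0725 in DESeq2. Without E433 it was -0.45 (adjusted p = 0.0893 in edgeR). Irf8, the partner of PU.1 in monocyte development, was at 6.36, 6.07 and 6.49 CPM in controls and 4.88, 6.71 and 3.75 CPM in mutants, so that 2 mutants were below the controls and E433 was above them. The log2 fold change of Irf8 was -0.30, and -0.54 without E433. Maf, a factor of resident macrophages that chondrocytes also express, was at 95.9, 103 and 98.8 CPM in controls and 106, 78.9 and 104 CPM in mutants, again with E433 on the other side of the controls from E423 and E440. Its log2 fold change was -0.05, and 0.08 without E433. The part of the chondrocyte content of the libraries in the level of Maf was not tested.

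Of the lineage and pan-leukocyte markers, Cd68, a glycoprotein of late endosomes, behaved like Spi1. It was at 13.7, 15.4 and 14.4 CPM in controls and 10.3, 6.80 and 11 CPM in mutants, with no overlap and E433 the lowest. Its log2 fold change was -0.63 (interval -1.10 to -0.17), with an adjusted p of 0.395 in edgeR and 0.0764 in DESeq2, and without E433 it was -0.44 (adjusted p = 0.070 in edgeR). Laptm5, a lysosomal membrane protein of leukocytes, was at 43.3, 43.0 and 43.9 CPM against 36.4, 40.2 and 32.6 CPM, a small difference (log2 fold change -0.25) without overlap in CPM. Itgb2, the integrin chain CD18 that all leukocytes carry, was at 4.50, 6.42 and 5.11 CPM against 3.22, 4.22 and 2.82 CPM, a log2 fold change of -0.64 (interval -1.16 to -0.13). Without E433 the log2 fold changes of Laptm5 and Itgb2 were -0.33 and -0.82 (adjusted p = 0.0601 and 0.0732 in edgeR).

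Adgre1 encodes F4/80, the classic mouse macrophage marker. It was at 17.8, 17.6 and 16.5 CPM in controls and 12, 17.4 and 11.1 CPM in mutants. In CPM E423 and E440 were thus below every control while E433 was among them. In TPM E433 was below every control too, at 7.53 TPM against 7.75 to 8.37 TPM. Aif1 (IBA1) was also lowest in E423 and E440, at 4.71, 4.70 and 4.84 CPM against 3.78, 5.43 and 3.53 CPM. So was Ptprc (CD45), at 8.40, 8.89 and 8.99 CPM against 6.86, 9.79 and 6.0 CPM. For both of these genes E433 was the highest of all embryos. Log2 fold changes with all libraries and without E433 were -0.35 and -0.58 for Adgre1 (adjusted p without E433 = 0.0314 in edgeR), -0.16 and -0.37 for Aif1, and -0.21 and -0.44 for Ptprc (0.0902). Cd53, a leukocyte tetraspanin, was at 9.09, 7.28 and 9.15 CPM against 6.25, 10.3 and 7.98 CPM, and Itgam (CD11b) at 1.32, 1.88 and 2.08 CPM against 2.02, 1.72 and 2.45 CPM, with overlapping groups. Without E433 their log2 fold changes went from -0.06 to -0.25 and from 0.23 to 0.35. An exon of Itgam overlaps one of Gm49368 on the same strand, so its counts are less certain.

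Scavenger and resident-macrophage receptors went in both directions. Mrc1, the mannose receptor CD206, was at 65.8, 67.8 and 61.9 CPM in controls and 69.5, 71.0 and 70.6 CPM in mutants. Stab1, the scavenger receptor stabilin-1 that endothelium also makes, was at 93.3, 96.4 and 80.5 CPM against 103, 103 and 103 CPM. In both genes the mutants lay just above the controls, with log2 fold changes of 0.11 (interval -0.05 to 0.27) and 0.19 (interval -0.01 to 0.40). Exons of Stab1 overlap those of Nt5dc2 on the other strand, and strand was not used in counting. Cd163, the haemoglobin scavenger receptor, was at 3.77, 4.30 and 3.57 CPM against 7.53, 4.20 and 7.80 CPM. E423 and E440 were above every control and E433 lay within the control range, giving a log2 fold change of 0.75 (interval 0.13 to 1.36, adjusted p = 0.421 in edgeR) and of 0.99 without E433 (adjusted p = 0.0211).

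On the lower side, Lyve1, a hyaluronan receptor of perivascular macrophages and of lymphatic endothelium, was at 54.9, 44.6 and 51.9 CPM in controls and 39.0, 39.6 and 40.4 CPM in mutants. The mutants were close to each other, including E433, and all under the controls, with a log2 fold change of -0.35 (interval -0.57 to -0.12, adjusted p = 0.376 in edgeR and 0.0980 in DESeq2). Msr1, the class A scavenger receptor, was at 9.19, 10.5 and 9.59 CPM against 7.26, 8.38 and 8.21 CPM (log2 fold change -0.30). Folr2, a folate receptor of resident macrophages, overlapped between the groups at 0.552 to 1.03 CPM in controls and 0.674 to 1.02 CPM in mutants. Its exons overlap Gm10602 on the other strand, and its sign turned with the RSEM expected counts (0.18 in the featureCounts counts, -0.19 in RSEM). Without E433 it was 0.11.

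Timd4 and Marco, the lowest genes, were highest in E433. Timd4 was at 0.433, 0.772 and 0.309 CPM in controls and 0.144, 0.812 and 0.520 CPM in mutants, with a log2 fold change of -0.03, and of -0.57 without E433. Marco had 4, 4 and 15 counts in the control libraries and 2, 50 and 4 in the mutant libraries, so that E433 alone held 1.16 CPM against at most 0.309 CPM elsewhere. The log2 fold change of Marco was 1.34 with all libraries (interval -1.54 to 4.21) and -1.27 without E433. Of 6 liver macrophage genes, E433 was above both other mutants in 4 and below both in 1, and their summed level was 43.3 CPM in E433 and 37.5 to 43.0 CPM elsewhere. Clec4f was at 0.696 CPM against at most 0.0867 CPM elsewhere, and Cd5l at 2.48 CPM against at most 0.574 CPM elsewhere. Another liver macrophage gene, Vsig4, had no count in any mutant library, which allows up to 0.0650 to 0.0722 CPM per library, against 0.0412 to 0.153 CPM in controls. These 3 genes, like Xist above, were named after their values were seen, and the part of liver cells in the values of E433 was not tested.

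The C1q chain genes lie next to each other on chromosome 4 and were read at similar levels. C1qa was at 27.4, 30.5 and 29.0 CPM in controls and 22.9, 28.0 and 22.9 CPM in mutants. C1qb was at 37.2, 34.3 and 36.8 CPM against 23.2, 36.2 and 22.1 CPM. C1qc was at 32.0, 26.8 and 30.2 CPM against 21.5, 29.7 and 22.3 CPM. In each case E423 and E440 were below every control and E433 was within the control range. Means were 28.9 ± 1.53 and 24.6 ± 2.90 CPM for C1qa (SD, n = 3 each), 36.1 ± 1.57 and 27.2 ± 7.85 CPM for C1qb, and 29.6 ± 2.63 and 24.5 ± 4.54 CPM for C1qc. Log2 fold changes were -0.23, -0.41 and -0.28, and every interval included 0 (-0.50 to 0.03, -0.88 to 0.06 and -0.63 to 0.08). Without E433 they were -0.33, -0.67 and -0.43, with adjusted p-values of 0.0745, 0.0135 and 0.0667 in edgeR.

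Because the chains assemble into 1 protein, their levels were also added per embryo in TPM. The sum was 137, 133 and 134 TPM in controls and 89.1, 140 and 90.4 TPM in mutants. Embryos E423 and E440 thus had about the same sum, well under the controls, and E433 had the highest sum of all 6. The division among the chains varied little: C1qb made up 34 to 40.0% of the sum, C1qa 30.1 to 35.3% and C1qc 27.0 to 30.7%. In E423 and E440 the share of C1qb was 35.1% and 34%, below the 38.5 to 40.0% of the other 4 embryos.

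**Figure D3:**
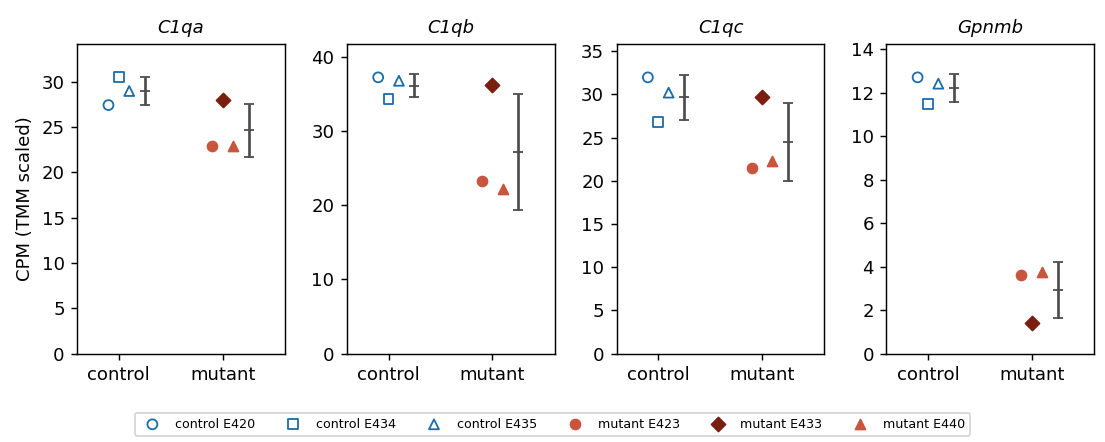
CPM of the C1q chain genes and of Gpnmb in each embryo, with the group mean and SD (n = 3) as bars beside the points. For the C1q chains mutant E433 sits at the control level (28.0, 36.2 and 29.7 CPM) above the other mutants, whereas for Gpnmb all mutants are far below the controls and E433 is the lowest at 1.42 CPM.

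Fc receptors and their adaptors differed little. Fcer1g, the common γ chain that signals for Fc receptors, was at 12.4, 11.5 and 12.7 CPM in controls and 12, 11.9 and 12.5 CPM in mutants, a log2 fold change of -0.01 (interval -0.25 to 0.23). Tyrobp was at 19.7, 17.8 and 20.9 CPM against 18.3, 14.2 and 19.1 CPM, with E433 alone below the controls in CPM. In TPM every mutant was below every control for Tyrobp, at 59.08, 54.21 and 60.05 TPM against 52.92, 44.57 and 50.65 TPM. Fcgr3, the low-affinity IgG receptor, was at 8.93, 9.13 and 8.43 CPM against 8.56, 10.1 and 9.64 CPM, and overlapped. Fcgr1, the high-affinity IgG receptor, was at 4.78, 4.46 and 5.90 CPM against 3.39, 6.03 and 4.31 CPM, with E423 and E440 low and E433 high. Without E433, log2 fold changes went from -0.18 to -0.05 for Tyrobp, from 0.09 to 0.05 for Fcgr3, from -0.01 to 0.01 for Fcer1g and from -0.14 to -0.38 for Fcgr1.

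Among the partners of these adaptors, Trem2, the lipid-sensing receptor that signals through Tyrobp, was at 5.57, 4.66 and 4.45 CPM in controls and 3.90, 4.36 and 3.60 CPM in mutants. The groups did not overlap, but the gap was narrow, and the log2 fold change was -0.31 (interval -0.68 to 0.06). Clec4n, dectin-2, a fungal pattern receptor that signals through Fcer1g, was at 3.36, 2.32 and 2.62 CPM against 1.78, 2.69 and 1.71 CPM, a log2 fold change of -0.42 that was -0.66 without E433.

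Of the effector genes, Lyz2 was at 47.7, 52.8 and 52.0 CPM in controls and 30.3, 48.3 and 27.8 CPM in mutants. Values in E423 and E440 were far under the controls, and that of E433 lay within their range. The log2 fold change was -0.52 (interval -1.03 to -0.01, adjusted p = 0.465 in edgeR), and -0.80 without E433 (adjusted p = 0.0109). Its neighbouring copy Lyz1, which shares much of its sequence, was read at only 1.92 to 3.56 CPM, and reads that fit both copies were left out by the authors' counting. Ctss, the protease cathepsin S, had the same order at 18.1, 23.4 and 18.6 CPM against 12.4, 20.8 and 13.3 CPM. So did Cybb, the X-linked catalytic subunit of the phagocyte NADPH oxidase, at 5.62, 8.71 and 5.07 CPM against 3.73, 7.26 and 4.68 CPM. Without E433, log2 fold changes went from -0.37 to -0.64 for Ctss (adjusted p = 0.0652 in edgeR) and from -0.31 to -0.62 for Cybb.

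Pf4 was the opposite case, at 19.3, 17 and 22.2 CPM in controls and 28.4, 20.8 and 29.9 CPM in mutants, with E423 and E440 above every control (log2 fold change 0.43, interval 0.02 to 0.84, and 0.58 without E433 with an adjusted p of 0.0581 in edgeR). Of 7 platelet and megakaryocyte genes tested, 5 were below 0 in log2 fold change, where 12968 of all 26596 genes were. Every mutant lay below every control for 1 of the 7 (8.21% of all genes) and above for 1 (6.81% of all genes). DESeq2 called 1 of the 7 higher, of 355 called higher in all. Their summed level was 8.10 to 9.98 CPM in controls and 6.48 to 11.6 CPM in mutants. The part of megakaryocytes in the level of Pf4 was not tested. Cd14, the lipopolysaccharide co-receptor, was at 1.22, 1.30 and 1.38 CPM against 1.11, 1.23 and 1.65 CPM and overlapped, with a log2 fold change of 0.03, and of 0.09 without E433.

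Embryo E433 differed from the other mutants in many of these genes. For 13 of the 34 genes (Irf8, Adgre1, Aif1, Ptprc, Marco, C1qa, C1qb, C1qc, Fcgr1, Clec4n, Lyz2, Ctss and Cybb), E423 and E440 were below every control in CPM and E433 was not, a pattern found in 14.7% of all genes. For Adgre1, E433 was also below every control in TPM. Marco is among them on 2 counts in E423 and 4 in E440. Controls E420 and E434 also had 4 counts each, so for Marco the order of E440 and these controls rests on scaling alone. For 3 genes (Maf, Cd163 and Pf4), E423 and E440 were above every control and E433 was not, as in 16.9% of all genes. E433 was above both other mutants in 22 of the 34 genes (64.7%), against 41.5% of all genes. It was below both in 9 (26.5%), against 41.6% of all genes. Several other lists held the same order: E433 was above both in 11 of 11 endothelial and lymphatic, 10 of 11 granulocyte and monocyte, 6 of 7 dendritic cell, 6 of 6 erythroid, 9 of 9 hepatocyte and 10 of 10 early chondrocyte genes. It was above both in 16 of 26 other macrophage genes and in 0 of 8 mast cell, 0 of 9 keratinocyte and 0 of 7 adipocyte genes. The endothelial genes had median log2 ratios to the controls of -0.23 in E423, 0.18 in E433 and -0.26 in E440. Relative to the control mean, the log2 ratios of the 34 genes had a median of -0.36 in E423, -0.37 in E440 and 0.01 in E433.

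Without E433, 21 of the 34 genes had both remaining mutants below every control (23% of all genes) and 5 had both above (24.3%). The edgeR test then gave an adjusted p under 0.1 at any fold for 12 lower genes, namely Spi1, Adgre1, Cd68, Ptprc, Laptm5, Itgb2, C1qa, C1qb, C1qc, Lyz2, Ctss and Gpnmb, against 6.18% of all genes. Cd163 and Pf4 were higher at the same limit, against 7.22% of all genes. Past the fold limit as well, 1 of the 34 was called, Gpnmb. E423 and E440 are the close pair described above, so their agreement with each other is a narrow estimate of the spread among mutants. Leaving out E434, the control that stood apart, gave no gene of the 34 an adjusted p under 0.1 in edgeR. Nor did leaving out E420, E435, E423 or E440, each on its own.

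**Figure D4:**
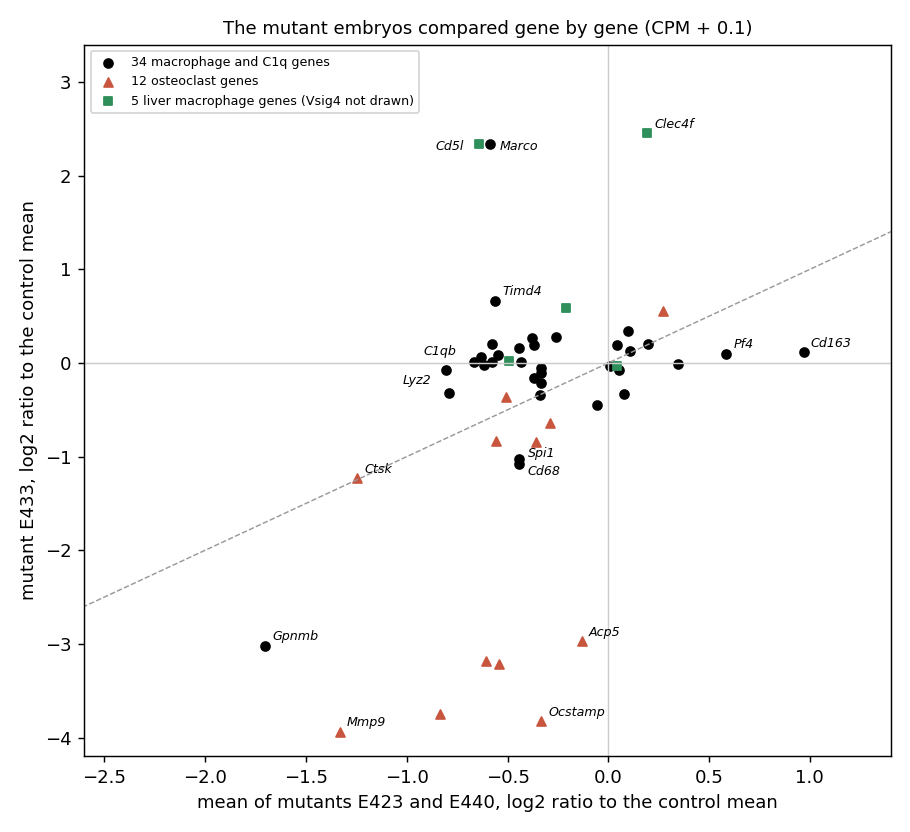
Log2 ratio to the control mean (CPM + 0.1) in mutant E433 against the mean of mutants E423 and E440, for the 34 macrophage and C1q genes (black), 12 osteoclast genes (red) and 5 liver macrophage genes (green), with the line of equal values dashed. Most black points lie left of 0 and near 0 in height, Gpnmb lies low in both directions, and several osteoclast genes lie far down in E433.

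Osteoclasts share the lineage and several of these genes, so their own markers were set beside them. Of 12 osteoclast genes, 11 had every mutant below every control, where 8.21% of all genes did so, and the other, Car2 (carbonic anhydrase 2), had every mutant above, at 22.8, 27.4 and 22.1 CPM against 16.2 to 20.5 CPM in controls. The median log2 fold change was -0.77, and 1 gene, Ctsk (cathepsin K), was called lower by edgeR (adjusted p = 0.0999), where 0.0301% of all genes were. Ctsk was at 229, 161 and 230 CPM in controls and 84.0, 86.8 and 87.7 CPM in mutants. The summed level of the 12 genes was 723 to 741 CPM in controls and 396, 218 and 391 CPM in mutants. Mmp9, the gelatinase of osteoclasts, was at 286, 316 and 275 CPM against 120, 18.9 and 112 CPM, and Acp5 (TRAP) at 70.9, 82.0 and 71.8 CPM against 69.5, 9.44 and 66.9 CPM. Mmp9 and Acp5 were lowest in E433, and Ctsk was not. In CPM Gpnmb, Spi1 and Cd68 were also lowest there, as were Maf, Tyrobp and, outside the 34 genes, Csf1r. The C1q chains, Ptprc and Adgre1 were higher in E433 than in the other mutants. Of the 34 genes, E433 was below both other mutants in 9 (41.6% of all genes) and above both in 22 (41.5% of all genes). The share of osteoclasts in the levels of Gpnmb, Spi1 and Cd68 was not tested. Osteoblast genes, which are another source of Gpnmb, were lower in every mutant for 10 of 10, where 8.21% of all genes were. Their median log2 fold change was -1.42, and 1 of them was called lower by edgeR (0.0301% of all genes). The share of osteoblasts in the level of Gpnmb was not tested.

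A further 26 macrophage genes outside the 34 gave a median log2 fold change of -0.09. Of these, 3 had every mutant below every control (8.21% of all genes) and 1 every mutant above (6.81% of all genes). EdgeR and DESeq2 each called 0. An unadjusted p under 0.05 in edgeR was found for 2 lower (4.7% of all genes) and 3 higher (5.9% of all genes). Csf1r, the receptor for M-CSF on which most macrophages depend, was at 62.4, 70.7 and 62.4 CPM in controls and 56.9, 50.2 and 54.5 CPM in mutants, a log2 fold change of -0.28 (adjusted p = 0.407 in edgeR). The groups did not overlap for Csf1r. Nor did they for Mpeg1, the macrophage pore-forming protein perforin-2, named after its values were seen, which was at 19.9, 22.9 and 19.3 CPM against 6.30, 16.9 and 7.71 CPM (log2 fold change -1.01, adjusted p = 0.433 in edgeR and 0.0893 in DESeq2). The most abundant genes of that list overlapped: Cd36 was at 97.6 to 134 CPM in controls and 133 to 191 CPM in mutants, Lgmn at 98.3 to 128 and 99.3 to 104 CPM, and Dab2 at 105 to 118 and 86.3 to 110 CPM. Adipocytes also express Cd36, and the part of the adipocyte genes given above in its level was not tested.

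Growth factors and ligands that act on macrophages were read in the same libraries. Csf1, which encodes M-CSF, was at 39.1, 46.8 and 41.3 CPM in controls and 34.4, 34.8 and 32.9 CPM in mutants (log2 fold change -0.32, adjusted p = 0.384 in edgeR). It was the only 1 of 7 tested genes of that list without overlap, where 8.21% of all genes were lower and 6.81% higher without overlap. Il34, the second ligand of Csf1r and a product of keratinocytes, was at 1.93, 0.882 and 2.62 CPM against 10.2, 1.88 and 9.69 CPM, high in E423 and E440 alone. Both genes were named after their values were seen. Keratinocyte genes summed to 27380 and 27525 CPM in E423 and E440, 3203 CPM in E433 and 18.2 to 6301 CPM in controls, and their part in the level of Il34 was not tested.

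The rest of the complement system was read as 28 tested genes, of which 9 were below 0 in log2 fold change. Log2 fold changes ran from -4.82 to 5.74. The summed level of the list was 1020, 1201 and 1049 CPM in controls and 935, 1025 and 940 CPM in mutants. Of the 28, 3 had every mutant below every control (8.21% of all genes) and 8 every mutant above (6.81% of all genes). The median log2 fold change was 0.37, and 0 were called by edgeR. An unadjusted p under 0.05 in edgeR was found for 3 lower (4.7% of all genes) and 9 higher (5.9% of all genes). DESeq2 called 2 in each direction, where it called 122 lower and 355 higher genes in all. The proteases that join C1q in the C1 complex were higher in every mutant: C1s1 was at 11.6, 11.5 and 11.1 CPM against 15.6, 18.2 and 16.4 CPM, and C1ra at 3.23, 4.24 and 3.30 CPM against 6.21, 4.64 and 6.57 CPM. Their inhibitor Serping1 was at 24.2, 24.5 and 22.6 CPM against 32.4, 27.5 and 33.7 CPM. C3, the central component of the cascade, was at 2.67, 6.07 and 1.98 CPM against 14.6, 18.2 and 12.3 CPM (log2 fold change 2.07, adjusted p = 0.269 in edgeR and 1.92e-05 in DESeq2). Genes on the lower side of the list are not named here. Those named are all on the higher side and were named after their values were seen. None of these proteins is a macrophage product in particular, and the cells that made their RNA cannot be told from bulk RNA.

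Genes of other blood cells were summed in the same way. Granulocyte and monocyte genes, the nearest relatives, summed to 12.6 to 16.9 CPM in controls and 14.2 to 20.7 CPM in mutants. Of the 11 tested, 0 were below the controls in every mutant (8.21% of all genes) and 1 was above them (6.81% of all genes). Their median log2 fold change was 0.37. Lymphocyte genes summed to at most 8.21 CPM in any library. Mast cell genes were higher, at 559, 236 and 564 CPM in mutants against 218, 50.01 and 226 CPM in controls. Erythroid genes summed to 12110, 10749 and 12995 CPM in controls and 4306, 8738 and 4384 CPM in mutants, so they too were lowest in E423 and E440. Whether blood content moved the 34 genes was not tested. In bulk RNA, fewer macrophages and less RNA per macrophage cannot be told apart.

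**Figure D5:**
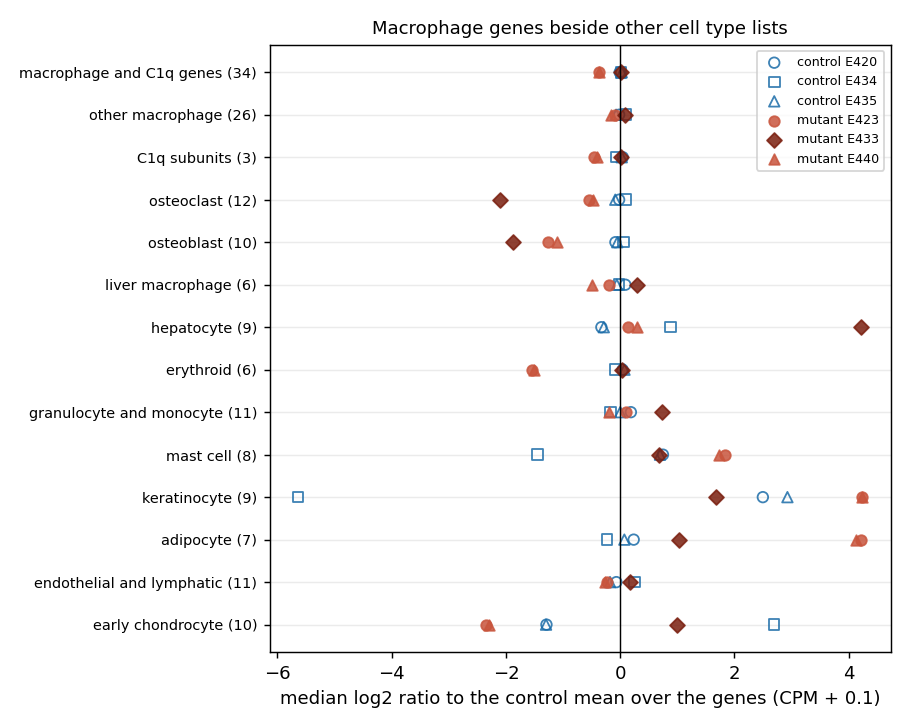
Median log2 ratio to the control mean (CPM + 0.1) over the genes of each list in each embryo, with the number of genes tested in brackets. The macrophage and C1q genes sit at -0.36 and -0.37 in mutants E423 and E440 and at 0.01 in E433, while the osteoclast and osteoblast genes are lowest in E433 and the hepatocyte genes are highest there.

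With the RSEM expected counts, which share out fragments that map to several genes, the sign was kept for 31 of the 34 genes, 0 were called by edgeR, and estimates for genes of at least 1 TPM moved by at most 0.37 on the log2 scale, the largest shift being that of Folr2. Overlapping exons of another gene were present for 4 of the 34 (Maf, Itgam, Stab1 and Folr2).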

How the data were processed

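The authors aligned reads of 6 stranded mRNA libraries to GRCm38 with HISAT2 2.1.0 and deposited featureCounts 1.6.0 counts per gene, without normalization, with each end counted on its own, strand unused and reads that map to several places left out. Expected counts and TPM per gene were deposited too, made by the authors with STAR 2.7.6 and RSEM 1.2.31. Another 12 columns of per-sample values, in the authors' DESeq2 1.26.0 tables of fold changes and p-values, were not used here.

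Conditions were taken from the sample labels. After TMM scaling, edgeR 4.0.16 in R 4.3.3 (quasi-likelihood functions glmQLFit and glmQLFTest) was run on the 26596 genes with a total of at least 10 counts, with Benjamini-Hochberg adjustment, an adjusted p limit of 0.1 and a log2 fold limit of 1. DESeq2 1.42.0, other scalings and filters, rounded RSEM expected counts, other limits and leaving out libraries were alternatives. Leaving out E434 and E433 together and summing the close libraries were added after the values were seen. Log2 ratios of single embryos to the control mean used CPM + 0.1. Intervals of fold changes are 95% intervals from the quasi-likelihood F test. With 3 embryos per group, floors of 3 counts cover counting error only.

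The 34 genes, the 19 lists set beside them and the tests were chosen with earlier results of these data known. By plan every one of the 34 was named, with Foxc1, Foxc2, Csf1r and, from a list, genes past both limits or the 3 of highest mean CPM. Outside that plan, Lyz1 was named as a copy of Lyz2. Xist, Clec4f, Cd5l, Vsig4, Car2, Mpeg1, Csf1, Il34 and the complement genes C1s1, C1ra, Serping1 and C3 were named after their values were seen. Symbols and coordinates came from GENCODE on GRCm38 (55141 of 55487 IDs matched), and promoters from RefSeq on GRCm38.p6. For 23 of the 24 promoter windows the end was found in the start of an annotated transcript. The steps were tested on simulated counts. The comparison of C1q chain and adaptor proteins that had been planned was not run.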

Additional observations from a re-analysis of the deposited data

How the results depend on the processing

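With 3 embryos per group and a close pair in each, the number of calls over all genes depended on the method. The median of the 34 genes stayed below 0 under all 16 alternatives, from -0.38 (without E433) to -0.17 (without E423). The other adjusted p limits and the robust step keep the fold changes of the main fit. Their medians and signs were therefore fixed in advance. Against 8 lower and 9 higher genes in all, DESeq2's Wald test called 122 and 355, the robust step 16 and 19, no low-count filter 15 and 22, RSEM expected counts 5 and 5, an adjusted p limit of 0.05 0 and 0, and the adjusted p alone 14 lower. Leaving out 1 library gave 0 to 353 lower and 0 to 734 higher, the highest without E433. Leaving out E434 and E433 together gave 648 and 1418, and summing the close libraries 0 and 0. Of the 34 genes, 0 were called in either direction, but DESeq2 called 1 lower (Gpnmb), leaving out 1 library gave 0 to 1 lower (Gpnmb without E433), and leaving out E434 and E433 gave 1 lower (Gpnmb, -1.77) and 1 higher (Cd163, 1.07). Genes of the 34 with every mutant below every control numbered 8 to 21 on leaving out 1 library (10.4 to 23% of all genes), and those above 2 to 5 (9.57 to 24.3%). Without E434 and E433 they numbered 23 (31.5%) and 5 (31.2%), and 21 lower and 5 higher had an adjusted p under 0.1 in edgeR (18.3% and 19.4%).

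Of 543 log2 fold changes of single genes under an alternative, 514 kept their sign and their side of the limits. These counts include the other adjusted p limits and the robust step, under which no sign could turn. Signs turned only for genes near 0 or of few counts. With DESeq2's size factors and its Wald test Fcer1g was 0.0018 and 0.0019, and with RSEM Fcer1g was 0.040, Folr2 -0.19 and Timd4 0.21. Without E434 and E433 Maf was 0.11, Marco -1.59 and Folr2 -0.10. With the close libraries summed Cd53 was 0.08, Timd4 0.011, Fcgr1 0.00070 and Fcer1g 0.0044. Leaving out 1 library turned 8 genes, with ranges of -0.049 to 0.025 for Fcer1g, -0.16 to 0.14 for Cd14, -0.023 to 0.42 for Folr2, -0.57 to 0.42 for Timd4, -0.25 to 0.10 for Cd53, -0.38 to 0.036 for Fcgr1, -0.12 to 0.081 for Maf and -1.27 to 2.15 for Marco. The cause of these turns was not tested. No paired analysis was possible because the labels number no replicates and do not say which littermates belong together. Depth limits Marco and Timd4 most, with as few as 2 and 6 counts in a library.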
